A study of Homo sapiens with 52 samples.

Results

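The 10-fold increase from the low to the high dose of an epigenetic inhibitor was examined across a screen of 20 compounds in RH4 cells, a line from a fusion-positive rhabdomyosarcoma. The comparison used 44 of the 52 samples of the series: 40 treated samples, 1 at each of 2 doses of 20 compounds, and 4 samples of solvent alone. Each compound was taken as 1 pair of samples sequenced on the same flow cell. The dose step of a gene is log2(TPM + 1) at the high dose minus log2(TPM + 1) at the low dose, so that a step of 1 is a 2-fold difference on that scale. TPM is a read count divided by gene length and scaled to a common total per sample. The step from 0.1% to 0.2% DMSO was measured in the same way and subtracted to allow for solvent. The DMSO percentage is recorded for the solvent samples only, so a like rise in the treated samples is assumed. Compounds were not chosen by any measured value.

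All samples were taken after 6 h. The labels give RH4 as the cell line, and the titles of the screen samples name RH41. Doses were 10 and 1 µM for 17 compounds, and 5 and 0.5 µM for Cpd50, GSKJ4 and LAQ824. The labels name 7 compounds with a target that writes, reads or erases histone acetylation, here called acetylation compounds. These were Bromosporin (bromodomains), SGC-CBP30 (the CREBBP/EP300 bromodomain), WT161 (HDAC6), OJI-1 (HDAC8), Merck60 (HDAC1/2), MC1568 (HDAC4/5) and LAQ824 (HDAC). The 11 methylation compounds were UNC0638 (KMT1C), UNC1999 (EZH1), EZ-005 (EZH2), PFI-2 (SETD7), SGC0946 (DOT1L), LSD-690, LSD-519 and GSKLSD1 (LSD1), GSKJ4 (JMJD3/UTX), Cpd50 (Pan Jumonji) and UNC-1215 (L3MBTL3). The remaining 2 were Trametinib (MEK1/2) and PFI-3 (SMARCA4). Solvent samples were titled high (0.2% DMSO, 2 samples) and low (0.1% DMSO, 2 samples). Each dose of each compound is 1 sample of 1 cell line, so a single compound carries no replicate check.

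Histone acetyltransferases and methyltransferases place marks on chromatin, bromodomain and methyl-lysine reader proteins bind them, and deacetylases and demethylases remove them. In fusion-positive rhabdomyosarcoma the PAX3-FOXO1 fusion works with the muscle factors MYOD1 and MYOG and with MYCN at highly acetylated enhancers, and together they are described as core regulatory transcription factors. The comparison asks which genes follow the dose whatever the target and which follow it under 1 compound.

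Total reads per sample ranged from 5737938 to 41415068, with a median of 13695970. The 28 samples on flow cell C5JW5ACXX, which carried 14 compounds and no solvent sample, had a median of 10571890 reads. The 10 markers of rhabdomyosarcoma were present in every sample, with summed levels of 1845 to 6311 TPM at the high dose, 1931 to 6298 TPM at the low dose and 4747 to 4898 TPM in DMSO. The 9 markers of blood, endothelial, epithelial, liver and glial cells summed to at most 5.14 TPM, KRT5 was at 0 in all samples, and none of the 9 reached the expression needed for testing. In bulk samples, fewer cells of a type and less RNA per cell cannot be told apart.

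No gene passed the test for a dose step across all 20 compounds when the step was examined both with and without the solvent. After subtraction, 977 of 11000 tested genes (8.88%) were called, 282 higher and 695 lower (limma, adjusted p below 0.05). Without subtraction, 0 genes were called, the smallest adjusted p was 0.0752, and 2290 genes had an unadjusted p below 0.05, of which 731 were higher and 1559 lower. No gene was in both sets. The subtracted constant is the same for all 20 compounds, so its own error does not enter that test. When the 2 solvent pairs were fitted as a second group, 0 genes were called by limma and 16 had an unadjusted p below 0.05. That fit pools the error, so the solvent pairs receive the spread between compounds. Its count of 0 therefore cannot decide how far the error of the solvent step carries the 977 calls. With libraries rescaled by median ratios, 910 genes were called after subtraction and 50.9% of these were higher, against 28.9% in the main comparison, so the excess of lower genes rested on the scaling.

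The genes called after subtraction had larger solvent steps than tested genes in general. Their median solvent step was 0.103 log2 in size, against 0.0503 over all tested genes. For 458 of the 977 (46.9%) the solvent step was larger in size than the mean step of the compounds, a share that was 39.6% over all tested genes. In 75 of them the mean step had the opposite sign before subtraction. The plot of solvent step against mean compound step shows most of the called genes split to either side of the vertical axis, which the subtraction also favours.

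**Figure D1:**
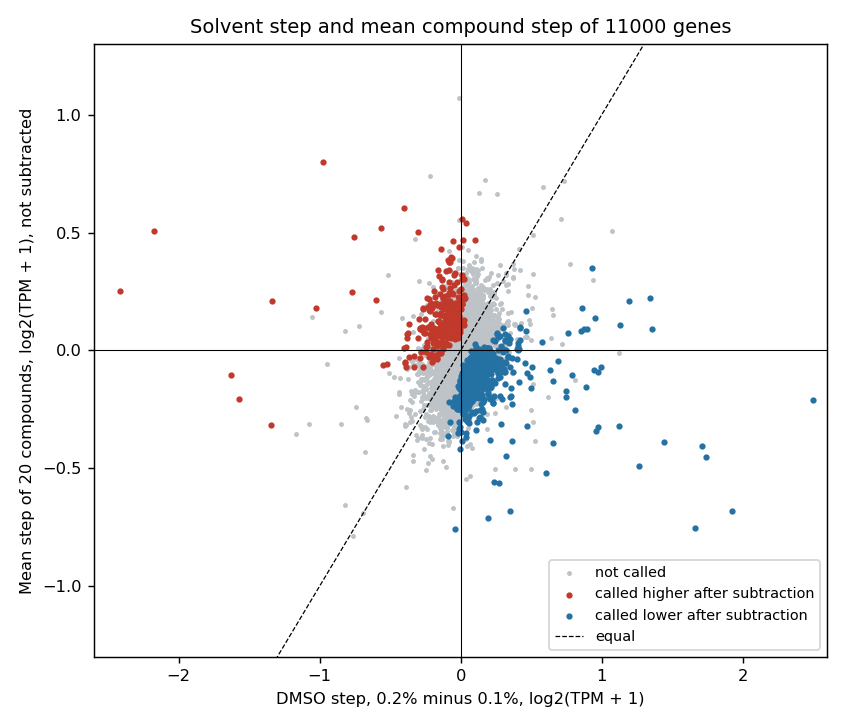
Each point is 1 of 11000 genes, with the DMSO step (0.2% minus 0.1%, log2) on the horizontal axis and the mean unsubtracted step of 20 compounds (log2) on the vertical axis. The 282 genes called higher after subtraction (red) lie mostly left of 0 and the 695 called lower (blue) mostly right of 0. The calls were made on values that include the DMSO step, which favours this split. The dashed line marks equal steps.

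SNORD54, a small nucleolar RNA gene at hg19 chr8:56986398-56986460, had the smallest p after subtraction. It stood at 24.2 and 38.7 TPM in 0.2% DMSO and at 15.6 and 11.7 TPM in 0.1% DMSO, from 6 to 20 reads per sample. The solvent step was therefore 1.12, and the mean step of the compounds changed from -0.32 before subtraction to -1.44 after it (SE 0.11, n = 20, limma adjusted p = 5.91e-08). Before subtraction 5 of 20 compounds were higher and the adjusted p was 0.138. MIR6768, a microRNA gene at chr16:2513968-2514039, followed the same pattern, with 0 and 3.39 TPM in 0.2% DMSO, 13.6 and 5.13 TPM in 0.1% DMSO and at most 6 reads in any of these. Its mean step was 0.51 before and 2.68 after subtraction. Without DMSO replicate 1 and without DMSO replicate 2, the subtracted mean was 0.99 and 4.38 for MIR6768 and -1.96 and -0.92 for SNORD54. Of the 6 genes with the smallest p in either direction after subtraction, SNORD54, SNORD45C and MIR6768 encode small RNAs and were counted from few reads. The others were RPS9, ISYNA1 (inositol-3-phosphate synthase) and SNAPC5 (a subunit of the small nuclear RNA activating complex).

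The 4 solvent samples showed how far the subtracted step can be known. In the 10378 genes that reached 100 reads in all 4, variance relative to counting noise was 2.47 for concentration, 2.21 for flow cell and 1.03 for what remained between the replicates. Apart from a flow cell difference common to both concentrations, the replicates thus differed by no more than sampling noise, and the solvent was counted as 1 pair. A limma fit of the 2 against 2 samples called 3 genes, all small nucleolar RNAs and all higher in 0.2% DMSO (0.0273% of those tested): SNORD42A, SNORD81 and SNORD49A, with 4 to 64 reads per sample. With the replicate number as a block it called 0, with 1764 at an unadjusted p below 0.05. Both fits took the 2 samples of a concentration as replicates, although these differed by little beyond flow cell and counting noise. Among genes with 50 reads, no solvent step reached 2-fold.

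Before subtraction the 3 higher genes with the smallest p were RPS9, RPL15 and EEF2, and none passed. RPS9, a protein of the small ribosomal subunit (chr19:54704726-54711515), was higher at the high dose in 18 of 20 compounds, with steps from -0.01 in PFI-2 through a median of 0.13 to 0.40 in Bromosporin. The mean was 0.15 ± 0.13 (SD, n = 20; limma adjusted p = 0.0752), and the solvent step was -0.05. RPL15, of the large subunit, had a mean step of 0.11 ± 0.08 and was higher in 19 of 20 compounds, and EEF2, the elongation factor that moves the ribosome along, had 0.20 ± 0.19 and was higher in 16 of 20. All 3 shared the adjusted p of 0.0752 and did not pass.

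On the lower side stood PDCL3, a phosducin-like protein that binds the chaperonin, SRSF7, a splicing factor, and NIFK, a nucleolar protein that binds Ki-67. PDCL3 (chr2:101179418-101193201) was lower in all 20 compounds, with steps from -0.69 in Bromosporin to -0.005 in PFI-3 and a mean of -0.22 ± 0.18 (SD, n = 20). SRSF7 had a mean step of -0.25 ± 0.23 and was higher in 1 compound, Merck60. NIFK had a mean step of -0.15 ± 0.10 and was higher in WT161 only, but its solvent step was -0.11, and its mean after subtraction was -0.05 (limma adjusted p = 0.331). None of these 3 passed the test without subtraction (limma adjusted p = 0.0752 for each). These 6 genes were chosen after the values were seen.

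A step in the same direction in all 20 compounds was found in 6 of 11000 genes, 1 higher and 5 lower. IL20RB, a cytokine receptor subunit, was higher in all, with a mean step of 0.32 ± 0.32, but its solvent step of 0.27 was nearly as large and left 0.05 after subtraction (limma adjusted p = 0.668). The lower genes were TMPO and LMNB1, both of the nuclear lamina, UTP18, of ribosomal RNA processing, XRCC5, a subunit of the Ku DNA end-binding complex, and PDCL3. LMNB1 had a mean step of -0.32 ± 0.40, from -1.44 to -0.03, against a solvent step of -0.005. Its limma adjusted p was 0.0843 without and 0.0176 with subtraction.

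**Figure D2:**
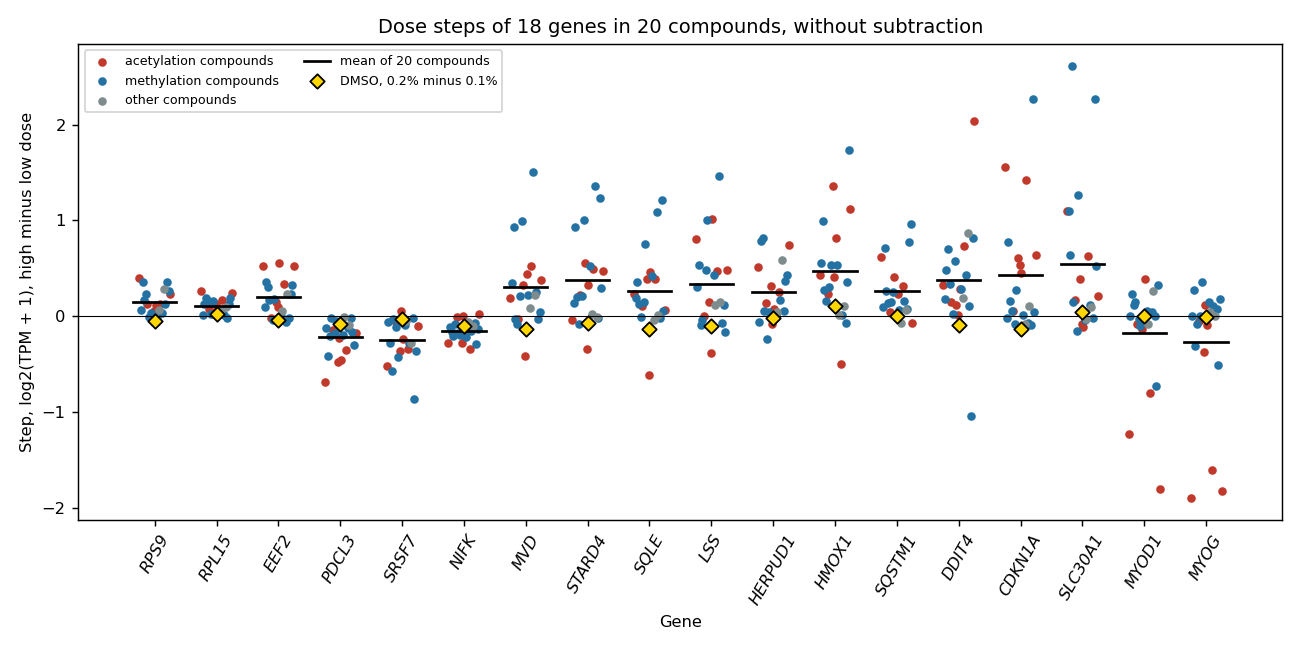
Each dot is the unsubtracted step (log2, high minus low dose) of 1 gene in 1 of 20 compounds, coloured by target class, with the mean as a bar and the DMSO step as a yellow diamond. RPS9, RPL15, EEF2, PDCL3, SRSF7 and NIFK have small steps with few exceptions in sign, whereas the means of SLC30A1, CDKN1A, MYOD1 and MYOG are drawn by a few compounds.

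The 11 methylation compounds gave the same outcome on their own. After subtraction 60 genes were called (0.545% of those tested), 19 higher (0.173%) and 41 lower (0.373%, limma), and without subtraction 0 were called, with 1529 at an unadjusted p below 0.05 and a smallest adjusted p of 0.327. No gene was in both sets. After subtraction and rescaling by median ratios, 53.7% of 54 called genes were higher, against 31.7% in the main comparison. The smallest p values after subtraction belonged to DNAJC12, HSPB2 and SREBF2 among higher genes and SNORA20, SNAPC5 and BAG2 among lower ones. SREBF2 encodes the transcription factor that switches on cholesterol synthesis, DNAJC12 and BAG2 are co-chaperones, and HSPB2 is a small heat shock protein of muscle.

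SREBF2 (chr22:42229083-42303312) stood at 181.4 and 176.2 TPM in 0.2% DMSO and at 193.7 and 188.5 TPM in 0.1% DMSO. This solvent step of -0.10 was not called (limma adjusted p = 0.505). The mean step of SREBF2 in the 11 methylation compounds was 0.31 (SE 0.05, limma adjusted p = 0.0205) after subtraction and 0.21 before it (adjusted p = 0.327). The direction thus held both ways and the call held in 1 of them. BAG2 had a solvent step of 0.31, from 7.64 and 8.04 to 10.1 and 9.81 TPM, and a mean step of -0.55 after and -0.24 before subtraction. Before subtraction, the smallest p values in the methylation compounds were those of IGBP1, UBB and ARMCX1 (higher) and UTP20, NIFK and PSPC1 (lower), all with a limma adjusted p of 0.327.

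The acetylation and methylation compounds did not differ in the step of any single gene at the threshold used (0 of 11000 called by limma, smallest adjusted p 0.148, 1923 with an unadjusted p below 0.05). This comparison does not depend on the subtraction, since the subtracted step is the same in every compound and cancels. The smallest p values, none of which passed, were those of SNORD29, SPTAN1 (a spectrin) and GALNT10 (an enzyme of mucin-type glycosylation) on the acetylation side and of ARMCX1, TRAPPC2B and RAB28 on the methylation side. SPTAN1 had a difference of 0.66 (SE 0.14, 7 against 11 compounds, limma adjusted p = 0.148) and reached its highest step, 1.14, in WT161. ARMCX1 had a difference of -0.65 (SE 0.13, adjusted p = 0.148). It was higher at the high dose in 9 of 11 methylation compounds and in 0 of 7 acetylation compounds.

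The size of the whole step, taken as the root mean square (RMS) over all tested genes, differed far more between compounds than between classes. After subtraction its geometric mean was 0.371 log2 in the acetylation compounds and 0.317 in the methylation compounds. This is a log2 difference of 0.23 (exact two-sided permutation p = 0.444, 31824 arrangements). Before subtraction, the largest RMS step was that of UNC0638, 0.875, followed by Bromosporin at 0.697, WT161 at 0.548 and SGC-CBP30 at 0.427. The smallest were LAQ824 at 0.146 and UNC-1215 at 0.135, below both solvent pairs, which gave 0.181 and 0.162. Among genes with 50 reads they were not below the solvent, with 0.117 in LAQ824 and 0.113 in UNC-1215 against 0.110 and 0.102. Relative to counting noise these values were 1.41 and 1.56 against 1.11 and 1.15.

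The count of genes at least 2-fold apart after subtraction put the same 4 compounds first. UNC0638 had 924 genes higher and 1522 lower (22.2% of those tested) and Bromosporin had 221 higher and 1337 lower (14.2%). WT161 had 277 higher and 421 lower (6.35%), and SGC-CBP30 had 81 higher and 254 lower (3.05%). Each of the other 16 compounds had at most 1.47%. Among the methylation compounds the shares were 1.35% for UNC1999 and for LSD-690, 1.25% for PFI-2, 1.24% for EZ-005, 0.991% for LSD-519, 0.982% for GSKJ4, 0.973% for SGC0946, 0.764% for Cpd50, 0.645% for GSKLSD1 and 0.355% for UNC-1215. The rest were OJI-1 with 1.47%, Trametinib with 1.07%, Merck60 with 0.973%, PFI-3 with 0.936%, MC1568 with 0.591% and LAQ824 with 0.445%. Among the 4 compounds with the largest counts, rescaling moved the balance of higher and lower genes by over 10 percentage points in Bromosporin and WT161. After rescaling by median ratios Bromosporin had 487 genes higher and 762 lower, its median step moving from -0.23 to -0.01, and WT161 had 382 higher and 318 lower.

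**Figure D3:**
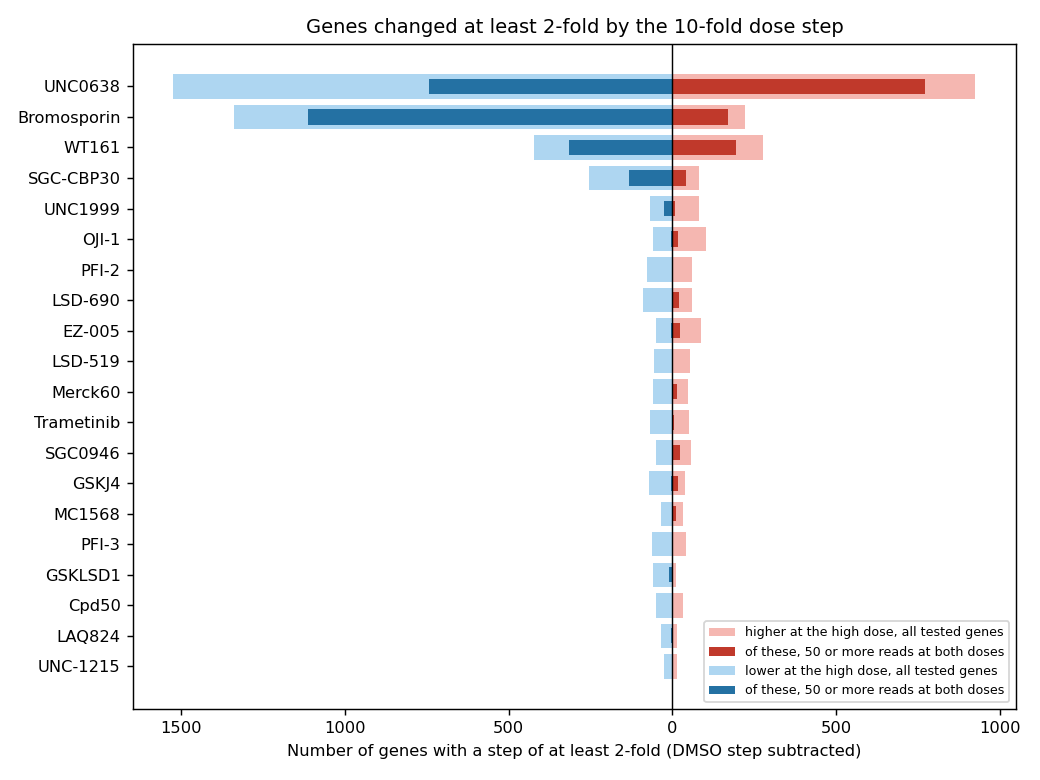
Horizontal bars give the number of genes at least 2-fold higher (right, red) or lower (left, blue) at the high dose of each of 20 compounds after subtraction of the DMSO step. The narrow dark bars count the genes with 50 or more reads at both doses, and UNC0638, Bromosporin, WT161 and SGC-CBP30 hold most of them.

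Many genes behind the small counts had few reads. With at least 50 reads at both doses, UNC0638 kept 769 genes higher and 743 lower, and Bromosporin kept 169 and 1111. This limit was set on the 2 libraries of each compound, and it kept from 9079 genes in UNC0638 to 10771 in GSKLSD1. By the same rule LSD-690 had 20 higher and 0 lower, SGC0946 had 23 and 0, EZ-005 had 24 and 3, GSKJ4 had 17 and 5, Merck60 had 15 and 2, OJI-1 had 16 and 4, and MC1568 had 10 and 1. Lower genes prevailed in UNC1999 with 9 higher and 26 lower, in GSKLSD1 with 0 and 11, and in LAQ824 with 0 and 6. LSD-519 and PFI-3 had none. The unsubtracted RMS step over the genes kept for each compound ranged from 6.05 times counting noise in Bromosporin to 1.07 times in LSD-519. The step of LSD-519 was thus hardly larger than counting alone would give.

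A small step did not mean a small difference from solvent. LAQ824 lay 0.975 log2 RMS from 0.1% DMSO at its low dose and 0.953 from 0.2% DMSO at its high dose, with 2958 and 2843 genes at least 2-fold apart. Bromosporin went from 0.516 to 1.02, UNC0638 from 0.346 to 0.884 and WT161 from 0.532 to 0.838. OJI-1 was farther from solvent at the low dose, with 0.414 at the low and 0.218 at the high dose and 188 against 60 genes at least 2-fold from DMSO. GSKLSD1 was too, with 0.400 and 0.293 and 292 against 119 genes. The low-dose library of OJI-1 had 6895435 reads and its high-dose library 12282928. All of these except LAQ824 were sequenced on a flow cell without solvent samples, and the part of the flow cell in their distance from DMSO was not tested.

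**Figure D4:**
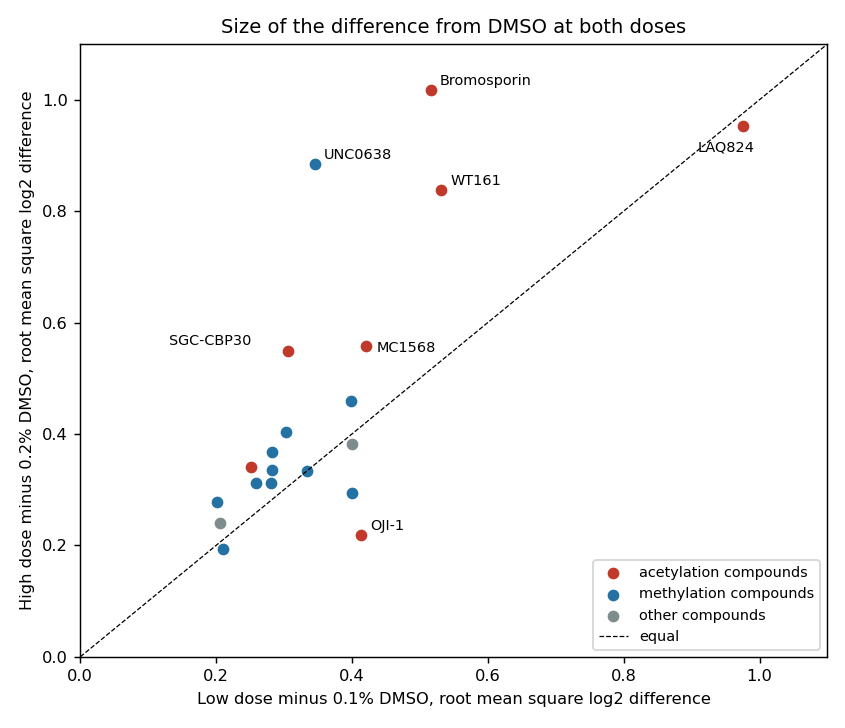
Each point is 1 compound, with the RMS log2 difference from 0.1% DMSO at the low dose on the horizontal axis and from 0.2% DMSO at the high dose on the vertical axis. LAQ824 lies near 0.98 and 0.95, close to the dashed line of equal size, UNC0638, Bromosporin and WT161 lie well above the line, and OJI-1 and GSKLSD1 lie below it.

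Over all 11000 tested genes, 94 were at least 2-fold higher and 96 at least 2-fold lower before subtraction in 4 or more compounds, with no minimum of reads. Among the 8834 genes with 50 reads in every treated sample, 8 were so higher and 3 lower in 4 or more compounds, and 0 of all tested genes were in 10 or more. KLHL24, an adaptor of a ubiquitin ligase (chr3:183353411-183402304), was the most recurrent and was at least 2-fold higher in 7 compounds. KLHL24 went from 7.57 to 92.7 TPM in UNC0638, from 8.15 to 24.0 in LSD-690, from 7.55 to 22.8 in UNC1999 and from 10.4 to 25.1 in EZ-005. It went from 7.78 to 18.01 in GSKJ4, from 18.8 to 41.8 in Bromosporin and from 10.0 to 21.9 in SGC-CBP30, against 7.18 to 8.60 TPM in the 4 solvent samples. LAQ824 held KLHL24 at 32.2 and 35.02 TPM, above solvent at both doses. The mean step of KLHL24 was 0.67 ± 0.86 (SD, n = 20), higher in 16 of 20, with a limma adjusted p of 0.0847 before and 0.0550 after subtraction.

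SLC30A1, the zinc exporter of the plasma membrane, was at least 2-fold higher in 5 compounds. PNPLA2 (a triglyceride lipase), JUND (an AP-1 subunit), DDIT3 (a stress-induced transcription factor), KLHL41 (a muscle Kelch protein), NXF1 (an mRNA exporter) and HEXIM1 (the inhibitor of P-TEFb) were so in 4 each. PNPLA2 was higher in 17 of 20 compounds, with a mean step of 0.44 ± 0.50 (limma adjusted p = 0.0843 before and 0.00903 after subtraction). RXRG, PDGFC and TAGLN3 were at least 2-fold lower in the same 4 compounds, Bromosporin, SGC-CBP30, UNC0638 and WT161. RXRG (a retinoid receptor) and PDGFC (a growth factor) were lowest in SGC-CBP30, with steps of -2.06 and -2.17. TAGLN3, a transgelin of neurons, was lowest in Bromosporin at -1.56.

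Compound-specific genes were defined by size alone, as a subtracted step of at least 1 in 1 compound and under 0.5 in the other 19. There were 722 such compound-gene pairs (0.328% of 220000), of which 466 belonged to UNC0638, 213 to Bromosporin and 34 to WT161. OJI-1 and SGC-CBP30 had 4 each, LSD-519 had 1 and the other 14 compounds had none. Of the UNC0638 genes 185 were higher, whereas 210 of the 213 Bromosporin genes were lower. This split is without rescaling, and the median subtracted step over all tested genes was -0.13 in UNC0638 and -0.24 in Bromosporin. With 50 reads at both doses 633 of the pairs remained. Just inside the limit were TRIT1 at -1.001 and ERCC4 at -1.002, both in Bromosporin, and just outside were LSM10 at -0.99995 and KYAT3 at -0.99976 in UNC0638.

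The 2 largest steps of each compound are given with their levels. SPC24, a subunit of the NDC80 complex at the kinetochore (chr19:11256170-11266488), went from 31.2 to 1.52 TPM in UNC0638, from 190 to 9 reads, with a subtracted step of -3.71. SPC24 stayed between 22.9 and 25.7 TPM in the solvent samples. C17orf62 went from 74.2 to 7.97 TPM in UNC0638 (step -3.14) and was at 72.2 to 76.5 TPM in solvent.

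MRPL27, a mitochondrial ribosomal protein, went from 76.9 to 12.4 TPM in Bromosporin (step -2.52), and its low-dose level already lay below the 133.3 to 144.2 TPM of solvent. SMARCAD1, a chromatin remodeler, went from 43.9 to 7.98 TPM in Bromosporin (step -2.31). SETD1B, a histone H3 lysine 4 methyltransferase, went from 11.2 to 2.51 TPM in WT161 (step -1.80), and PLEKHO1 from 73.6 to 22.9 TPM (step -1.58).

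The 4 genes particular to OJI-1 by this rule, SDK2, HSPG2, EGFR and PCDHGC3, were higher at the high dose. SDK2, an adhesion protein, went from 6.94 to 14.8 TPM, but solvent held it at 16.1 to 18.3 TPM. HSPG2, which encodes the matrix proteoglycan perlecan, went from 64.7 to 133.8 TPM against 198.7 to 204.6 TPM in solvent. In both genes the low dose was the sample farther from solvent. The 4 genes of SGC-CBP30, CPA5, ST8SIA5, ABAT and PPP1R9A, were lower, with CPA5 going from 284.9 to 118.1 TPM and ST8SIA5 from 5.79 to 2.10 TPM. TMSB15B in LSD-519 rested on 20 and 30 reads.

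Gene lists of known pathways were then followed through the 20 compounds, and the heatmap of list medians shows in which compounds each list was high or low. Counts of members called are from limma after subtraction, against 2.56% of all tested genes called higher and 6.32% called lower. At an unadjusted p below 0.05 after subtraction, 950 of the 11000 tested genes were higher and 2083 lower. Without subtraction no member of any list was called. Members named for a single compound were chosen after their values were seen.

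**Figure D5:**
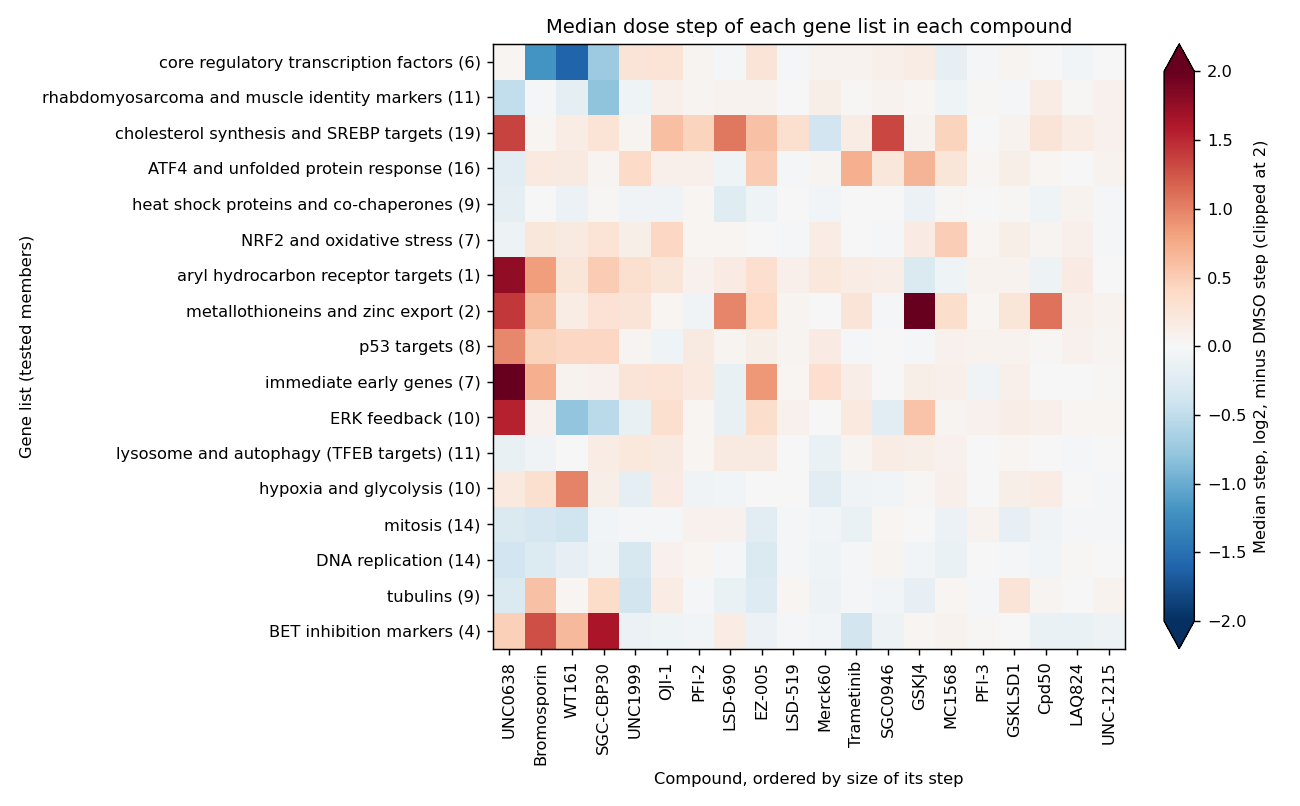
Each cell is the median subtracted step (log2, colour limited at 2 in size) of the tested members of 1 gene list in 1 of 20 compounds, ordered by the size of the compound's step. Cholesterol genes are red in UNC0638, SGC0946 and LSD-690, core regulatory transcription factors are blue in WT161, Bromosporin and SGC-CBP30, and hypoxia genes are red in WT161.

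Genes of cholesterol synthesis and uptake had steps above 0 in every tested member. When sterols are low, SREBF2 activates the enzymes of this pathway, the LDL receptor and INSIG1, which restrains it. Of 19 tested members all 19 had a mean step above 0 before subtraction, as had 4322 of all 11000 tested genes. After subtraction 12 members were called higher and 0 lower. The median of the mean steps was 0.29 before subtraction, against -0.03 over all tested genes, and the solvent step had a median of -0.06. MVD, of the mevalonate pathway, had a mean step of 0.30 ± 0.43 (SD, n = 20) and was higher in 15 of 20 compounds (limma adjusted p = 0.00485 after and 0.103 before subtraction). STARD4 (a sterol carrier), SQLE (squalene epoxidase) and LSS (lanosterol synthase) were likewise called only after subtraction, with mean steps of 0.38, 0.27 and 0.34 before it.

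A few compounds carried the large cholesterol steps. The list median after subtraction was 1.35 in UNC0638, with 13 of 19 members at least 2-fold higher (8.4% of all tested genes), 1.34 in SGC0946 with 14 (0.518%), and 1.06 in LSD-690 with 10 (0.536%). It was 0.60 in OJI-1, 0.58 in EZ-005, 0.45 in MC1568 and 0.44 in PFI-2. Merck60 was opposite, with a median of -0.38. HMGCS1, which makes the substrate of the rate-limiting reductase, went from 197.4 to 827.9 TPM in UNC0638, from 103.5 to 291.8 in SGC0946 and from 111.6 to 235.9 in LSD-690. It went from 82.4 to 56.1 TPM in Merck60, and the solvent samples lay between 82.0 and 94.1. INSIG1 went from 204.2 to 1067 TPM in UNC0638, a log2 ratio with a counting interval of 2.31 to 2.47 (exact 95%).

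The leading compounds differed in some members. MVD went from 74.2 to 72.7 TPM and LSS from 61.4 to 66.7 TPM in UNC0638, whereas in SGC0946 MVD went from 53.6 to 153.6 TPM and LSS from 58.2 to 161.9 TPM. The other compounds labelled with LSD1 had smaller cholesterol steps than LSD-690. The list median after subtraction was 0.32 in LSD-519, with 17 of 19 members higher, and 0.07 in GSKLSD1, with 15 of 19 higher. Over all tested genes the median subtracted steps were 0.002 and -0.05 in the same order. HMGCS1 went from 112.6 to 146.5 TPM in LSD-519 and from 96.1 to 97.2 TPM in GSKLSD1.

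Stress genes of the ATF4 and unfolded protein response were mostly higher too. ATF4 and DDIT3 are transcription factors induced when amino acids run short or proteins misfold, and ASNS, PSAT1 and CHAC1 are among the targets. Of 16 members 15 had a mean step above 0 before subtraction, as had 4322 of all 11000 tested genes. After subtraction 4 members were called higher, DDIT4, HERPUD1, ATF3 and ATF4. HERPUD1 had a mean step of 0.25 ± 0.31 and was higher in 17 of 20 compounds (limma adjusted p = 0.0848 before and 0.0141 after subtraction). The list median was 0.70 in Trametinib, where 16 of 16 members were higher, 0.67 in GSKJ4 and 0.50 in EZ-005. Over all tested genes the median subtracted steps were -0.03, -0.05 and -0.02 in the same order. ASNS went from 43.8 to 135.0 TPM in GSKJ4 and from 43.0 to 101.7 TPM in Trametinib. In UNC0638 the list split, with ASNS going from 56.2 to 14.8 TPM and PSAT1 from 71.5 to 14.4 TPM while DDIT3 went from 62.7 to 178.4 TPM.

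DDIT4, an mTORC1 inhibitor induced by stress and hypoxia, was higher in 19 of 20 compounds, with a mean step of 0.38 ± 0.56 (limma adjusted p = 0.109 before and 0.0136 after subtraction). The exception was UNC0638 at -1.04. The highest DDIT4 step was in WT161, from 55.4 to 231.2 TPM. WT161 also held the hypoxia and glycolysis list, with a median of 0.99 and 10 of 10 members higher. The median subtracted step over all tested genes there was -0.07. BNIP3, a mitophagy receptor, went from 95.5 to 357.0 TPM, PFKFB3 from 25.7 to 99.4 TPM and the glucose transporter SLC2A1 from 80.6 to 202.3 TPM in this compound. Over all 20 compounds limma called 0 of the 10 hypoxia members after subtraction, with 3 higher and 1 lower at an unadjusted p below 0.05.

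The core regulatory transcription factors moved in 3 acetylation compounds. WT161, Bromosporin and SGC-CBP30 had list medians of -1.60, -1.20 and -0.73, with 6 of 6 members lower in each. Over all tested genes the median subtracted steps were -0.07, -0.24 and 0.001 in the same order. MYOD1, the master factor of the muscle lineage (chr11:17741110-17743678), went from 372.1 to 106.1 TPM in WT161, from 466.3 to 197.7 in Bromosporin and from 459.2 to 262.6 in SGC-CBP30, against 639.7 to 648.3 TPM in solvent. MYOG, which drives differentiation, went from 253.9 to 70.8, from 307.0 to 81.7 and from 498.5 to 163.3 TPM in the same order. The median of MYOD1 over the screen samples was 462.6 TPM, and its highest value, 648.3 TPM, was in solvent. The low doses of Bromosporin and SGC-CBP30 lay near that median, and that of WT161 lay below it. These 3 compounds were sequenced on a flow cell without solvent samples. The part of the flow cell in their distance from solvent was not tested. In LAQ824 MYOD1 was at 75.1 and 71.0 TPM and MYOG at 51.0 and 49.2 TPM, so that both doses were low and the step was near 0.

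No core factor was called by limma over the 20 compounds or between classes. At an unadjusted p below 0.05 over the 20 compounds, 0 of 6 were found after subtraction and 2 lower before it. Between classes 5 of 6 were lower in the acetylation compounds at an unadjusted p below 0.05, as were 1024 of all 11000 tested genes. The mean unsubtracted step of the 6 factors was -0.51 ± 0.69 in the 7 acetylation compounds and 0.06 ± 0.10 in the 11 methylation compounds. MYOD1 had a mean step of -0.17 ± 0.55 (SD, n = 20, limma adjusted p = 0.376), MYOG -0.27 ± 0.68 (0.257), MYCN -0.25 ± 0.52 (0.192) and SOX8 -0.12 ± 0.23 (0.191). FOXF1 had -0.06 ± 0.78 (0.856) and PAX3 0.02 ± 0.48 (0.911), and the sign of both depended on single compounds. Without WT161 the mean of FOXF1 was 0.09, and without UNC0638 that of PAX3 was -0.04. In WT161 FOXF1 went from 78.0 to 10.1 TPM, and in UNC0638 from 89.4 to 174.9 TPM. PAX3, whose reads include those of the fusion transcript as far as they fall on PAX3 exons, went from 19.3 to 45.8 TPM in UNC0638 and from 17.6 to 31.9 TPM in OJI-1, with 38.6 to 43.9 TPM in solvent.

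Of the 11 tested rhabdomyosarcoma and muscle identity markers, TNNT2, cardiac troponin T, was called lower after subtraction (mean -0.13, limma adjusted p = 0.0364) and the others were not called. The list median was -0.80 in SGC-CBP30, with 0 of 11 members higher.

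Zinc-handling genes had their highest list medians in GSKJ4 (2.87), UNC0638 (1.42), Cpd50 (1.09) and LSD-690 (0.97). Metallothioneins bind zinc and other metals and SLC30A1 exports zinc, and both are switched on by the metal-sensing factor MTF1. Only MT2A and SLC30A1 of 8 listed genes were expressed enough to test, and SLC30A1 was called after subtraction (mean step 0.50, SE 0.16, n = 20, limma adjusted p = 0.0494, against 0.103 before). In GSKJ4 MT2A (chr16:56642478-56643409) went from 230.3 to 1849 TPM and SLC30A1 (chr1:211748381-211752099) from 23.1 to 146.5 TPM. In Cpd50 MT2A went from 255.1 to 492.1 TPM and SLC30A1 from 15.9 to 35.3 TPM. In LSD-690 MT2A went from 246.0 to 363.1 TPM and SLC30A1 from 17.1 to 42.4 TPM. The solvent samples held 163.1 to 202.6 TPM of MT2A and 12.2 to 13.7 TPM of SLC30A1.

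MT1X, which was not tested, went from 4.80 to 242.4 TPM in GSKJ4 (14 to 734 reads) and from 7.25 to 40.5 TPM in Cpd50, against at most 3.35 TPM in solvent. Metallothionein genes are near copies of each other, so the division of reads among them is uncertain. UNC0638 had SLC30A1 at 11.5 and 59.0 TPM but MT2A at 181.0 and 246.8 TPM. The sequences upstream of MT2A and SLC30A1 are shown because the metal response element core, TGCACNC or TGCGCNC on either strand, lies in them. They are the 250 bases before the RefSeq start site in GRCh38.p14, at chr16:56608334-56608583 on the plus strand and chr1:211579162-211579411 on the minus strand, written 5′ to 3′, with each match in capitals.
MT2A: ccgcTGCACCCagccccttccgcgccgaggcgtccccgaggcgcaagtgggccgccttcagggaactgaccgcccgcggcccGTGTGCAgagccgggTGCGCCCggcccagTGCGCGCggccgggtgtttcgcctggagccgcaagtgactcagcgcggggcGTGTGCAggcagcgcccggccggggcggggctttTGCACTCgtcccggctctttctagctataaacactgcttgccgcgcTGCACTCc
SLC30A1: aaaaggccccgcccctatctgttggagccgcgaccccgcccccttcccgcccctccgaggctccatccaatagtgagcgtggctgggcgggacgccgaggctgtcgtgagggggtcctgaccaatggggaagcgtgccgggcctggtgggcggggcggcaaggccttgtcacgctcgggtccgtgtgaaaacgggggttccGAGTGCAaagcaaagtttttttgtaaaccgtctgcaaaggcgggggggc
The window of MT2A held 7 matches and that of SLC30A1 held 1. With the 50 bases after the start site included, MT2A had 8 matches, a number reached by 6 of 27305 RefSeq promoters (0.022%), and SLC30A1 had 2, which 8.59% of promoters reach or exceed. At least 1 match was present in 29.3% of all promoters. A match is a string of letters and not a measured binding site. Of the 8 listed genes 4 were in the promoter table and all 4 had a match.

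Immediate early genes, which growth factor signalling switches on within minutes, were highest in UNC0638. The list median there was 2.64, with 6 of 7 tested members at least 2-fold higher (8.4% of all tested genes). EGR1, a zinc finger transcription factor (chr5:137801181-137805004), went from 4.20 to 645.6 TPM in UNC0638, from 5.57 to 102.2 TPM in EZ-005, from 4.41 to 55.5 TPM in UNC1999 and from 10.3 to 68.4 TPM in Bromosporin. Solvent held EGR1 at 5.14 to 6.35 TPM. Its mean step was 1.07 ± 1.85 (SD, n = 20) and was not called (limma adjusted p = 0.131 before and 0.0662 after subtraction). FOS, below the expression limit, went from 0.555 to 64.9 TPM in UNC0638 (3 to 341 reads). ATF3 was the member of this list called higher after subtraction, with its highest step, 2.35, in UNC0638.

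Feedback inhibitors of ERK signalling, the dual-specificity phosphatase and Sprouty genes, followed in the same compound. The list median was 1.54 in UNC0638, with 10 of 10 members higher, -0.79 in WT161 and -0.54 in SGC-CBP30. Over all tested genes the median subtracted steps were -0.13, -0.07 and 0.001 in the same order. DUSP6, which removes phosphate from ERK, went from 31.6 to 204.9 TPM in UNC0638 and from 29.5 to 9.99 TPM in SGC-CBP30. In Trametinib, which blocks the kinase above ERK, DUSP6 was at 0.540 and 0.602 TPM at the low and high dose, against 37.4 to 49.8 TPM in solvent. SPRY4 behaved alike, going from 17.6 to 102.1 TPM in UNC0638 and from 13.5 to 3.27 TPM in SGC-CBP30. Over the 20 compounds 1 member, DUSP5, was called higher after subtraction, when the solvent step of this list had a median of -0.15.

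Among 8 tested p53 targets CDKN1A and BTG2 were called higher. CDKN1A, an inhibitor of cyclin-dependent kinases, had a mean step of 0.43 ± 0.65 (limma adjusted p = 0.111 before and 0.0105 after subtraction) and its highest step in UNC0638, from 33.3 to 164.3 TPM. GADD45A went from 169.2 to 694.7 TPM in the same compound, and the list median there was 0.96. TIPARP was the only aryl hydrocarbon receptor target expressed enough to test, and it was not called. It went from 42.3 to 136.0 TPM in UNC0638.

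Among 7 tested NRF2 targets HMOX1 (heme oxygenase) and OSGIN1 were called higher. HMOX1 had a mean step of 0.47 ± 0.53, higher in 18 of 20 compounds (limma adjusted p = 0.0843 before and 0.0357 after subtraction), and went from 41.4 to 107.6 TPM in MC1568. The list median was highest in MC1568 at 0.49. Of 11 lysosome and autophagy genes SQSTM1, an autophagy receptor, and FLCN, a regulator of lysosomal signalling, were called higher. SQSTM1 had a mean step of 0.26 ± 0.29, was higher in 18 of 20 compounds and had a solvent step of 0.004 (limma adjusted p = 0.0843 before and 0.0126 after subtraction).

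The BET inhibition markers had 4 tested members, HEXIM1, SERPINI1 and the histone genes HIST2H2BE and HIST1H2BD. The list is a set of genes used as readouts of inhibitors of BET bromodomains. It had medians of 1.63 in SGC-CBP30, 1.29 in Bromosporin and 0.65 in WT161. Limma called 0 of 4 over all compounds, with 0 at an unadjusted p below 0.05 after subtraction. Between classes it called 0, and 3 of 4 were higher in the acetylation compounds at an unadjusted p below 0.05, as were 899 of all 11000 tested genes. HEXIM1 went from 47.8 to 132.7 TPM in SGC-CBP30 and from 150.2 to 414.4 TPM in Bromosporin, whose low dose was already above the 40.5 to 43.5 TPM of solvent. LAQ824 held HEXIM1 at 129.9 and 125.8 TPM.

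The remaining lists had few called members. Of 9 heat shock genes HSPE1, the mitochondrial co-chaperonin, was called lower (mean -0.21, limma adjusted p = 0.0124). Of 14 DNA replication genes RRM2, a subunit of ribonucleotide reductase, was called lower (mean -0.23, adjusted p = 0.0186). Limma called 0 of 14 mitosis genes, of which 5 were lower at an unadjusted p below 0.05, and 0 of 9 tubulins, of which 1 was higher. TUBB3, a neuronal tubulin, went from 80.5 to 243.5 TPM in Bromosporin, and the tubulin list median there was 0.58.

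Steps of compounds resembled one another in a few pairs. Over 8834 genes the correlation of unsubtracted steps had a median of 0.05 over 190 pairs of compounds, and 101 pairs were below 0.1 in size. These values are across genes of single libraries and share no solvent sample. EZ-005 and UNC1999, labelled with EZH2 and EZH1, had the highest value, 0.64. Over all tested genes, with no minimum of reads, they shared 26 genes at least 2-fold changed in the same direction before subtraction. These were 24.8% of those of EZ-005 and 15.7% of those of UNC1999. Such sharing did not need a correlation: LSD-519 and PFI-2, at 0.06, shared 31 genes (31.3% and 25.6%). SGC-CBP30 and WT161, which have different targets, had the next highest correlation, 0.57. LSD-690 and LSD-519, with the same target, had 0.13, and GSKLSD1 had -0.08 with LSD-690. Both members of each pair named here, except GSKLSD1 and LSD-690, were sequenced on the same flow cell.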

How the data were processed

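RNA of the screen samples was polyA-selected and sequenced by the authors, aligned to hg19 with STAR and quantified with RSEM per the study's methods, and gene-level TPM values were deposited. The labels name STAR and edgeR as tools and do not name RSEM. Each deposited TPM column was converted back to whole reads: all 23037 rows above 0 came out whole within 0.02 reads (100%). The implied gene length, the same in every sample, was a whole number in 99.7% of these rows. The deposited values thus read as whole read counts over a fixed gene length. These reads were used for depth, for counting noise and for exact intervals (Clopper-Pearson on the read split, 95%), which cover counting error only.

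Genes with TPM of at least 5 in 20 of the 40 treated samples were tested, 11000 of 27043. Steps used log2(TPM + 1), and folds on this scale understate changes of low genes. The intercept of the 20 steps was tested with limma 3.58.1 (R 4.3.3, trend on mean expression, Benjamini-Hochberg over all tested genes), with and without the mean DMSO step, and a gene was taken as shifting with dose only if called in both. The study's methods speak of averaging replicate experiments, without naming which, whereas the samples used here hold 1 per dose of each compound. With 1 sample per dose and no statement of separate cultures, p-values measure the spread between compounds. Acetylation and methylation compounds were compared with limma and, for step size, with an exact permutation test (scipy 1.17.1). Single compounds received no test. The median-ratio scaling used genes with at least 10 TPM.

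DMSO replicate 1 of both concentrations shared one flow cell and replicate 2 another, so replicate numbers pair these samples. Deviations from group means correlated at 0.15 within a number. With 2 samples per concentration the value across numbers is the same with the sign changed, -0.15, and adds nothing.

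The members and lists were chosen with earlier results of these data known. Genes were named by smallest p in each fit and list, as the 2 largest compound-specific steps, or as core factors, and as the text states where they were chosen after their values were seen. The 8 samples of other experiments were not used here. Promoters came from RefSeq (GRCh38.p14). The limma fits were tested on simulated dose steps. Alternatives were the pseudocount, filter, scaling, flow cell, dose, DMSO as a second group, a replicate block, each compound or DMSO sample left out and, added after seeing the data, array weights and a minimum of 50 reads.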

Additional observations from a re-analysis of the deposited data

Results flagged for a closer look

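Dixon's test was run on 24 groups and marked 3, where chance marks about 1 in 20. The groups were the size of the step, the median unsubtracted step of each list and the step of each core factor in the 7 acetylation compounds, and the depth of the 4 solvent samples. SGC-CBP30 had a median step of -0.80 in the rhabdomyosarcoma and muscle identity markers, with the other 6 compounds between -0.26 and 0.10. Bromosporin had 0.63 in the immediate early genes, with the others between -0.11 and 0.19. WT161 had 1.02 in the hypoxia and glycolysis genes, with the others between -0.21 and 0.28. Each value comes from 1 sample per dose.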

How the results depend on the processing

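The count of genes called after subtraction depended on most choices. For the 20 compounds (977 genes in the main comparison) it was 2134 with TPM of at least 1 in 2 samples, 172 on flow cell C5JW5ACXX alone, 440 with 10 and 1 µM compounds alone, 0 with DMSO as a second group and 2513 with array weights. Leaving out 1 compound or solvent sample pair gave 673 to 2049, the highest without DMSO replicate 2, and 1657 without DMSO replicate 1. For the 11 methylation compounds (60 genes) it was 32 with a pseudocount of 0.1, 570 with the looser filter, 0 on that flow cell alone, 3 with 10 and 1 µM alone, 0 with DMSO as a second group, 1237 with array weights and 0 with 50 reads, and 11 to 812 when 1 was left out (without SGC0946 and without UNC0638). Without subtraction the count was 0 under every alternative run except array weights, which gave 30 for the 20 compounds. With these weights 13 genes were called both ways, namely GDF10, DDIT4, DLEU2, RPS29, SNAPC5, ADAT1, RPS15, RPS9, SRSF7, RRP1B, SNORA62, GUF1 and MAK16. The cause was not tested.

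The 3 solvent calls became 0 with the looser filter, 0 with the replicate block and 0 with 50 reads, and 16 to 25 with 1 sample left out, where a lone sample is assumed to vary like the others. Compound-specific pairs numbered 168 with a step of 1.5 and 533 to 1028 with 1 left out. The size difference between classes lay between 0.0738 (without Bromosporin) and 0.381 (without LAQ824) with 1 left out, and was 0.511 with 50 reads. With array weights the mean of MYOD1 was 0.0013 after and 0.0015 before subtraction, that of FOXF1 was 0.0704 and that of PAX3 -0.0093 before it. With 1 compound left out, the mean unsubtracted step ranged from -0.112 to 0.0873 for FOXF1 and from -0.0390 to 0.0822 for PAX3.

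A step of 1 compound rests on 2 libraries, the solvent step on 2 samples per concentration counted as 1 pair, and small RNAs on few reads.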

Other observations

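The genes that differed at least 2-fold had different spans in different compounds. Among 8834 genes with 50 reads the median gene span was 32.4 kb. The 740 genes higher in UNC0638 had a median span of 46.9 kb and the 723 lower ones 21.0 kb. The 139 genes lower in SGC-CBP30 had a median of 83.3 kb, whereas the 1016 lower in Bromosporin had 34.6 kb and the 318 lower in WT161 had 37.2 kb. These are descriptions of single pairs of libraries.

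The sterol response element letters TCACNCCAC were found in 1.15% of 27305 RefSeq promoters (both strands) and in 1 of the 14 listed cholesterol genes present in that table, SREBF2.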
